A study of Homo sapiens with 6 samples.

Results

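The unfolded protein response and the integrated stress response were examined in HEK293 cells transfected with a BAHD1 siRNA. The genes were 50 members of these responses, taken by symbol from a list of known roles, out of 19775 genes with a probe set of their own: chaperones and folding enzymes of the endoplasmic reticulum (ER), its degradation and import machinery, the stress sensors, the transcription factors they switch on, and the amino acid metabolism genes that those factors drive. Of the 54675 probe sets on each array, 115 were annotated to exactly one of these genes, and 49 of the 50 genes had at least one. SYVN1 was read only by a probe set that it shares with a microRNA gene and is given no value, and 3 other probe sets that a member shares with another gene were left out too. After the filter on dim probe sets, 107 of the 115 were tested and all 49 genes kept at least one. The members, and a second list used below, were chosen with earlier results of these data known, so no list was tested.

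In 3 arrays, HEK293 cells had been transfected with a BAHD1 siRNA, and in 3 arrays with a control siRNA, by lipofection in both groups, and RNA was taken 72 h later. HEK293 is an established line derived from human embryonic kidney, and BAHD1, named for its bromo-adjacent homology domain, is known to promote heterochromatin and to silence genes. The labels call the samples biological replicates. They describe no rescue and do not give the number of distinct BAHD1 siRNAs, so off-target effects cannot be told apart from those of BAHD1 loss.

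When unfolded proteins accumulate in the ER lumen, the sensors IRE1 (gene ERN1), PERK (EIF2AK3) and ATF6 are released from the chaperone BiP (HSPA5). IRE1 splices the XBP1 transcript, ATF6 is cleaved into a transcription factor, and both raise ER chaperones and degradation factors. PERK phosphorylates the translation factor eIF2, as do the amino acid sensor GCN2 (EIF2AK4) and other kinases of the integrated stress response. Most translation then falls while that of ATF4 rises, and ATF4 activates DDIT3, TRIB3, CHAC1, ASNS and serine synthesis genes. Phosphorylation, cleavage, translation and splicing are not measured by these arrays.

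Signals are given on the linear scale of the deposited table, and differences as log2 fold changes of log2(signal + 1), BAHD1 siRNA over control siRNA. The median signal per array was 17.5, 19.4 and 19.5 in BAHD1 siRNA arrays and 17.2, 17.9 and 15.9 in control arrays. VIM, CDH2, NEFL and KRT18, which this line is known to express, had signals of 493 or more in every array, while KRT8 and PAX2 did not exceed 46.1. NEFM ran from 97 to 177.1. PTPRC, CD3E and ALB, markers of leukocytes and hepatocytes, were below the filter, and the brightest COL1A1 probe set, a fibroblast marker, ran from 127.3 to 207.3. The brightest probe set of PECAM1, an endothelial marker, passed the filter at a dim 13.8 to 20.1. BAHD1 itself was read by 1 probe set, at 36.6, 46.8 and 41.2 in BAHD1 siRNA arrays and 62.9, 55.7 and 46.7 in control arrays. The groups overlapped, and its log2 fold change of -0.40 ± 0.15 (SE) did not pass the test (limma, one variance prior, adjusted p = 0.251), so the degree of knockdown is not established by this probe set. The 24 probe sets for poly-A control RNAs, which are added before labelling, read 1.49 times as high in BAHD1 siRNA arrays as in control arrays by their median, and the part of this shift in the results below was not tested.

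Some ER stress genes carry the ER stress response element, the sequence CCAAT, 9 further bases and CCACG, to which ATF6 and XBP1 are known to bind with the factor NF-Y. The matches in RefSeq promoters of build GRCh38.p14, in windows of 250 bases before each annotated start, are shown first. They are exact matches in a short window, so a member without one may still be a target of these factors. A promoter was listed for 46 of the 50 genes. DERL1, DERL3, PDIA3 and SHMT2 had no entry. These letters were found on either strand for 8 of the 46 genes (17.4%), against 25 of 27305 genes in the table (0.0916%). The members were chosen as known genes of these responses, so this contrast describes the list and was not tested. The matches, each read in the direction of the motif with its fixed letters in capitals, were as follows.
CALR, chr19:12938384-12938402: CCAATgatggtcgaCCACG
CANX, chr5:179698778-179698796: CCAATcttcacactCCACG
HSP90B1, first match, chr12:103930216-103930234: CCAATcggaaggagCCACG
HSP90B1, second match, chr12:103930321-103930339: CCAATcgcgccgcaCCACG
HSPA5, chr9:125241391-125241409: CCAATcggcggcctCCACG
CRELD2, chr22:49918554-49918572: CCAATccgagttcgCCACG
ERO1B, chr1:236282183-236282201: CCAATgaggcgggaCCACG
PDIA6, chr2:10812853-10812871: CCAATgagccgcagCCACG
XBP1, chr22:28800603-28800621: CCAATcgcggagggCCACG
The CANX match lay in the windows of more than one annotated start. No match of this motif overlapped one of the other motifs searched in a member. TGACGTG, the core of the element bound by XBP1 and ATF6, was found for HYOU1 alone (1 of 46 members, 2.17%, against 2.05% of all genes). TGATGCAA, the core of the element bound by ATF4 with C/EBP factors, was found for CEBPG, CHAC1, HERPUD1 and PPP1R15B (8.7% of members against 0.967% of all genes). A match is a stretch of letters and not evidence of binding, and no binding was measured.

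The windows of HSP90B1 and CALR, whose transcripts fell, and of HSPA5, whose difference did not pass the test, show how the elements sit in these promoters. The fixed letters of the element, or of its reverse complement, are in capitals, and each sequence runs 5′ to 3′ towards the gene's start. HSP90B1 lies on the plus strand (chr12:103930160-103930409), CALR on the plus strand (chr19:12938359-12938608) and HSPA5 on the minus strand (chr9:125241344-125241593).
HSP90B1: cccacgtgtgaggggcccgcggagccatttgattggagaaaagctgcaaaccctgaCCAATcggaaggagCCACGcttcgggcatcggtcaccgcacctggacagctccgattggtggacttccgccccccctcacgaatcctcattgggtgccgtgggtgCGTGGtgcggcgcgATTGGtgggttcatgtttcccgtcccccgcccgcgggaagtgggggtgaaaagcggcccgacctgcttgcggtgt
CALR: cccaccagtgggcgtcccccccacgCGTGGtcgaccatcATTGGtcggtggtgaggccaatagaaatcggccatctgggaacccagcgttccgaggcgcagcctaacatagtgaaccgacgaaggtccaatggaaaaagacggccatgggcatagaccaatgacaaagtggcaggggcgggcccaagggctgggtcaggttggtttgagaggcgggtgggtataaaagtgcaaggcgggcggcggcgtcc
HSPA5: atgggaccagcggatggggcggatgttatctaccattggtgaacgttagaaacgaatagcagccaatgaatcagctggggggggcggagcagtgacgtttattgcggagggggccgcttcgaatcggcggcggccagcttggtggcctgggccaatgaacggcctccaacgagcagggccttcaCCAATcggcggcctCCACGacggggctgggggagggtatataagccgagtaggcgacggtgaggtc

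In BAHD1 siRNA cells, lower calls were made for 4 of 12 ER chaperone genes, 2 of 6 oxidative folding genes, 1 of 2 translocon genes and 2 of 9 degradation genes, against 3.71% of all genes tested. Calreticulin (CALR), calnexin (CANX), GRP94 (HSP90B1), HSPA13, the disulphide isomerases P4HB and PDIA4, the translocon subunit SSR1, EDEM2 and SVIP each had at least one probe set that fell, to between 63.0% and 82.0% of the control level. EDEM2 and SVIP are both counted as degradation genes, although SVIP is known to inhibit that machinery. One probe set, of the degradation gene DERL1, rose. No probe set of a stress sensor, of ATF4, ATF3, DDIT3 or XBP1, or of an amino acid metabolism gene of the list was called in either direction.

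Calls come from a fit whose prior variance follows the mean signal (limma with trend and robust, the intensity-trend fit), and "rose" and "fell" are used only of probe sets past an adjusted p of 0.05 in it. This fit was added because earlier results of these data had shown that the planned fit called no probe set. The intensity-trend fit called 18 of the 107 member probe sets, against 4.45% of all 27458 tested. Of the 107, 17 were called lower (15.9%, against 2.28%) and 1 higher (0.935%, against 2.17%). Because the members were chosen with earlier results known, these shares describe the list and do not test it. The planned fit, with one variance prior, called 0 of the 107 and 0 of all tested (0%), and 20 member probe sets when testing was limited to those above the 75th percentile of signal (22.5%, against 8.27% of all then tested). In that fit the smallest adjusted p of a member was 0.131, and 26 members' probe sets were lower (24.3%, against 7.86%) and 1 was higher (0.935%, against 9.78%) at an unadjusted p under 0.05. The groups did not overlap for 35 lower member probe sets (32.7%, against 12.2% of all tested) and 4 higher ones (3.74%, against 13.4%). With 3 arrays against 3, a two-sided exact permutation test of a single value cannot go below 0.1. In bulk RNA a lower level in every cell and a loss in some of the cells cannot be told apart.

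The number of calls depended on single arrays. Lower member calls numbered 3 without BAHD1 siRNA replicate 2 (2.8%, against 0.371% of all tested), 3 without BAHD1 siRNA replicate 3 (2.8%, against 0.353%), 5 without control replicate 1 (4.67%, against 0.55%) and 6 without control replicate 2 (5.61%, against 0.524%). They numbered 14 without BAHD1 siRNA replicate 1 (13.1%, against 2.21%) and 14 without control replicate 3 (13.1%, against 2.03%). In each of these 6 fits all 17 differences stayed below 0. This was fixed in advance, because the groups did not overlap for any of the 17. One CANX probe set kept its call in all 6 fits, the CALR probe set farthest below 0 in 5, a SVIP probe set in 4 and one of SSR1 in 0. The DERL1 call was kept in 2, those without BAHD1 siRNA replicate 1 and without control replicate 3.

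Taking each gene by its brightest tested probe set, 33 of 49 members were lower and 16 higher, against 5713 lower and 6816 higher among 12529 genes. The median log2 fold change was -0.09 over the members and 0.02 over all genes. All 12 ER chaperone genes were lower, with a median of -0.16, and 11 were after quantile normalisation and 12 after cyclic loess or centring of the array medians. In the other groups 4 of 6 oxidative folding genes, 5 of 9 degradation genes, both translocon genes, 4 of 7 sensor and eIF2 genes, 3 of 6 transcription factor genes and 3 of 7 target genes were lower. Medians of these groups were -0.11, -0.09, -0.21, -0.11, 0.01 and 0.02. The sign of the median of the last 2 groups hung on the scaling, with medians of -0.01 for both when array medians were centred and of 0.05 and 0.09 after quantile normalisation. Counts of lower genes moved too, with 1 of 2 translocon genes lower after cyclic loess and 5 of 7 sensor and eIF2 genes after centring. Over all members 30, 31 and 35 genes were lower after quantile normalisation, cyclic loess and centring (61.2%, 63.3% and 71.4%, against 46.8%, 46.3% and 50% of all genes).

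**Figure D1:**
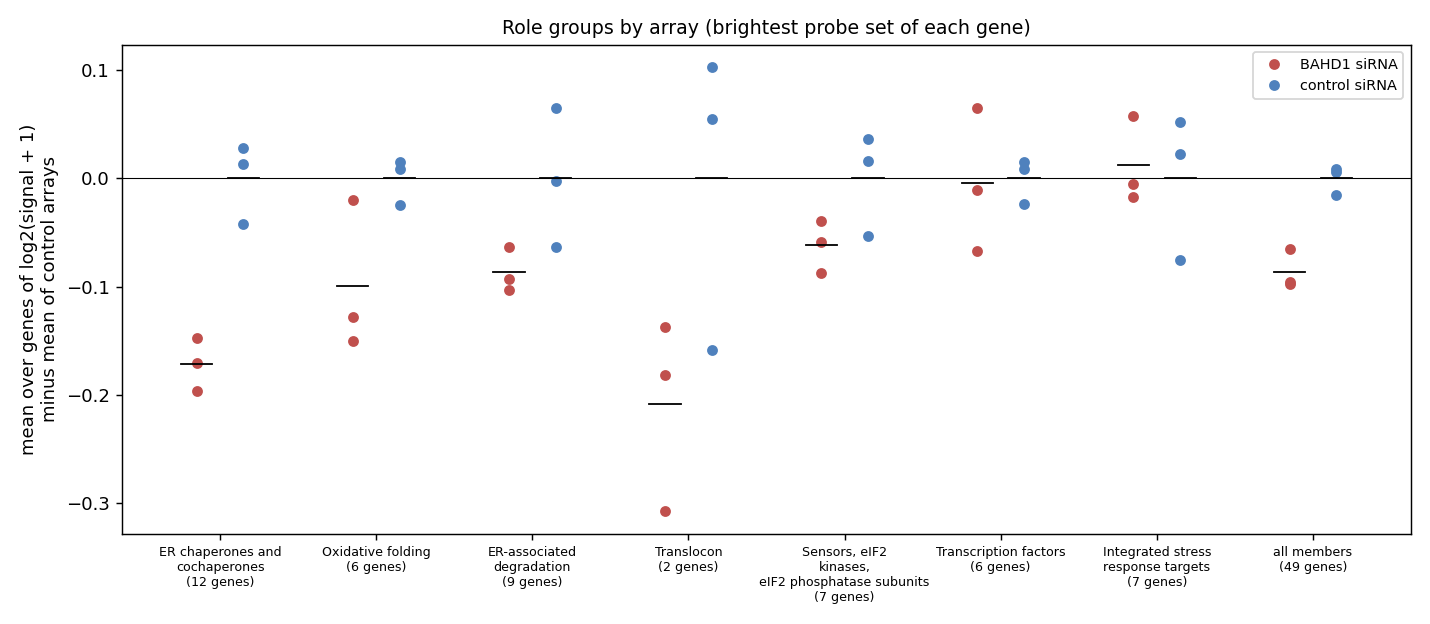
Mean over the genes of each role group of log2(signal + 1), minus the mean of the control arrays, for the 3 BAHD1 siRNA arrays (red) and the 3 control arrays (blue); bars are group means, and each gene is taken by its brightest probe set. The ER chaperone mean was -0.20, -0.15 and -0.17 in BAHD1 siRNA arrays against 0.01, -0.04 and 0.03 in control arrays. The groups overlapped for oxidative folding, the translocon, the sensors, the transcription factors and the integrated stress response targets. They were barely apart for ER-associated degradation, and apart for all members together.

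The role group means by array separate the chaperones most clearly. Their mean lay at -0.20, -0.15 and -0.17 in BAHD1 siRNA arrays, against 0.01, -0.04 and 0.03 in control arrays, with no overlap. For integrated stress response targets it was -0.02, 0.00 and 0.06 in BAHD1 siRNA arrays against 0.05, 0.02 and -0.08 in control arrays. The mean for oxidative folding was -0.13, -0.15 and -0.02 in BAHD1 siRNA arrays, where replicate 3 lay above the lowest control array at -0.02. For the translocon it was -0.14, -0.31 and -0.18 in BAHD1 siRNA arrays against -0.16, 0.10 and 0.06 in control arrays, which overlap at control replicate 1. ER-associated degradation was barely apart, with BAHD1 siRNA replicate 2 at -0.0638 and control replicate 2 at -0.0631. The mean over all members was apart too, with BAHD1 siRNA replicate 3 highest at -0.065 and control replicate 2 lowest at -0.015. These means describe lists chosen by name, with earlier results of these data known, and carry no test.

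**Figure D2:**
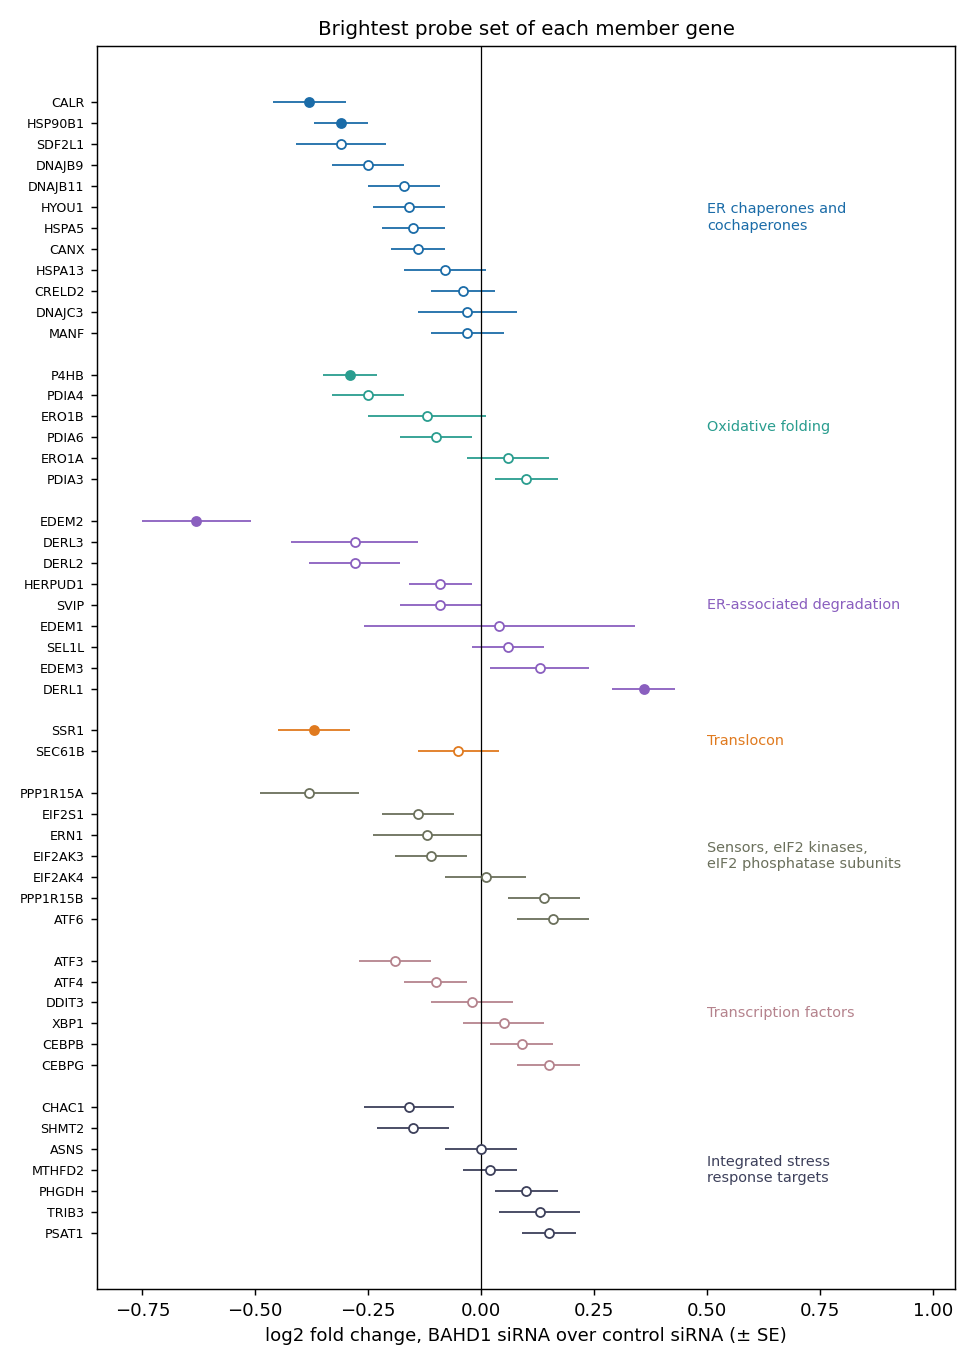
Log2 fold change (BAHD1 siRNA over control siRNA) ± SE from the intensity-trend fit for the brightest tested probe set of each of the 49 genes, grouped by role, with 3 arrays per group. Filled points passed an adjusted p of 0.05, namely CALR, HSP90B1, P4HB, EDEM2 and SSR1, which were lower, and DERL1, which was higher.

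Calreticulin and calnexin are lectin chaperones that hold newly made glycoproteins in the ER until they fold. CALR was the most complete case, as each of its 3 probe sets fell. The one farthest below 0 read 109.2, 122.2 and 133.4 in BAHD1 siRNA arrays, against 209, 170.3 and 202 in control arrays. That is 63.0% of the control level, a log2 fold change of -0.67 ± 0.12 (SE, intensity-trend fit, adjusted p = 0.0127). The brightest, whose name ends in _x_at, read 580.5, 688.8 and 571.7 in BAHD1 siRNA arrays, against 767.8, 787.7 and 832.8 in control arrays, at -0.38 ± 0.08 (adjusted p = 0.0248 in limma's intensity-trend fit). The third, whose name also ends in _x_at, stood at -0.40 ± 0.08. For all 3 the groups were apart, and CALR ran from -0.76 to -0.33 over its probe sets with one array left out. Of the 6 fits with an array left out, the brightest kept its call in 1 and the third in 3.

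CANX had 4 tested probe sets, all below 0, of which 2 fell. The stronger read 898.2, 963.8 and 902.1 in BAHD1 siRNA arrays, against 1305.3, 1197.8 and 1446.4 in control arrays. Its log2 fold change of -0.51 ± 0.08 had an adjusted p of 0.0062 in limma's intensity-trend fit, and it was the single member call that held without any one of the 6 arrays. The other call was at -0.35 ± 0.07. The brightest probe set of the gene was at -0.14 and the dimmest tested at -0.06, so the size of the change differed among readouts of this gene.

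GRP94, encoded by HSP90B1, is the HSP90 chaperone of the ER lumen. Its brighter probe set read 1624.6, 1644.4 and 1680.7 in BAHD1 siRNA arrays, against 2079.6, 2051.9 and 2005 in control arrays. The spread within each group was small beside the gap, at -0.31 ± 0.06 (adjusted p = 0.0178, limma intensity-trend fit). The dimmer one, at -0.54, did not pass and its groups overlapped. Both end in _x_at, a suffix that the array maker gives to probe sets that can bind similar sequences of other genes. Further HSP90B1 probe sets, ending in _s_at and annotated also to the microRNA gene MIR3652, were left out and give no value here.

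HSPA13 is an HSP70-like protein of microsomes. One of its probe sets fell, reading 568, 620.9 and 560.4 in BAHD1 siRNA arrays against 743.1, 697.6 and 884 in control arrays, with a log2 fold change of -0.40 ± 0.09. Its brighter probe set was at -0.08, so a change of the gene as a whole is not settled.

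BiP, encoded by HSPA5, is the main HSP70 of the ER and the usual readout of the unfolded protein response. Its brighter probe set read 2581.7, 2556.2 and 2687.4 in BAHD1 siRNA arrays, against 2768.2, 3069.2 and 2880.9 in control arrays. All BAHD1 siRNA values were lower than all control values, but the log2 fold change of -0.15 (95% confidence interval -0.30 to -0.01) did not pass after adjustment (adjusted p = 0.201, limma intensity-trend fit). SDF2L1, a partner of BiP, read 338.1, 323.3 and 273.6 in BAHD1 siRNA arrays against 419.9, 397.2 and 343.2 in control arrays, and its -0.31 ± 0.10 did not pass either (adjusted p = 0.102, and 0.0355 with the replicate number as a block). The cochaperones DNAJB9, DNAJB11 and DNAJC3, the nucleotide exchange factor HYOU1 and the secreted factors CRELD2 and MANF lay between -0.25 and -0.03 at their brightest probe sets, and none passed.

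**Figure D3:**
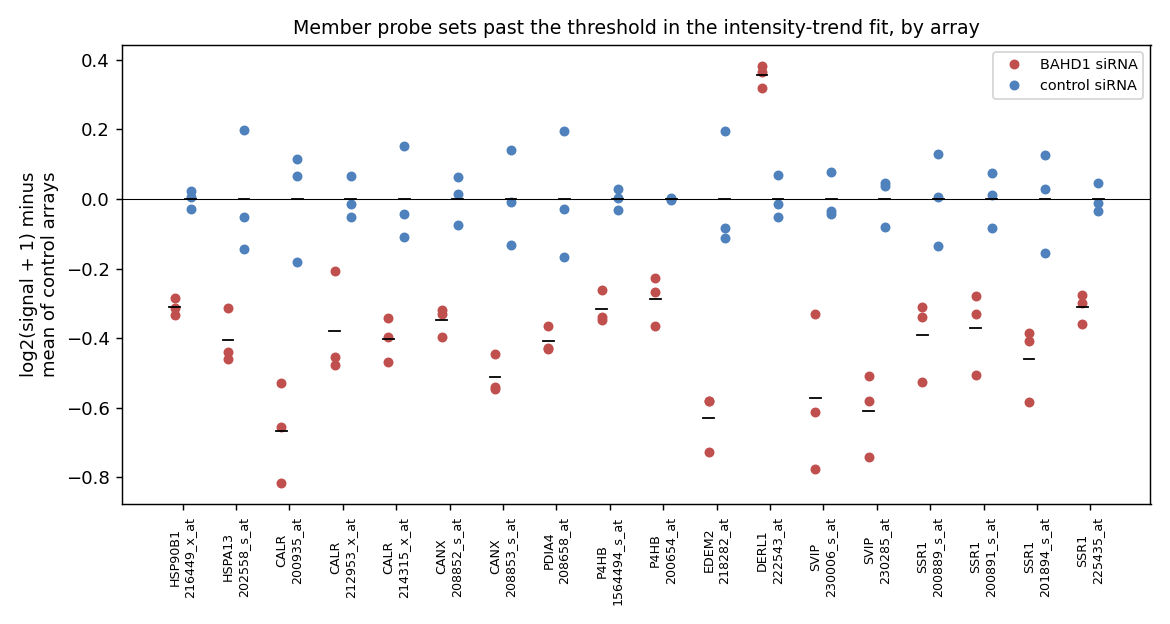
Log2(signal + 1) minus the mean of the control arrays in each of the 3 BAHD1 siRNA arrays (red) and 3 control arrays (blue) for the 18 member probe sets past the threshold of the intensity-trend fit; bars are group means. The groups do not overlap for any of the 18, and DERL1 is the one probe set with the BAHD1 siRNA arrays above the control arrays.

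Disulphide bonds of secreted proteins are made by protein disulphide isomerases, which the oxidases ERO1A and ERO1B recharge. P4HB, the founding isomerase, had 2 of 3 probe sets that fell. The brightest read 1304.1, 1184.8 and 1266.9 in BAHD1 siRNA arrays, against 1523.7, 1529.1 and 1526 in control arrays, with the control values almost identical. Its log2 fold change was -0.29 ± 0.06 (adjusted p = 0.0279, limma intensity-trend fit), and the other call was at -0.32 ± 0.07. The remaining P4HB probe set was at -0.17.

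For PDIA4, one of 2 probe sets fell. It read 304.8, 318.4 and 304.4 in BAHD1 siRNA arrays, against 402.4, 470.6 and 365.4 in control arrays, at -0.41 ± 0.10 (adjusted p = 0.0327, limma intensity-trend fit). The brighter PDIA4 probe set was at -0.25 ± 0.08 with no overlap between groups and did not pass. PDIA3, the isomerase that works with calreticulin and calnexin, was not lower, with 1557.6, 1658.4 and 1715.8 in BAHD1 siRNA arrays against 1472.8, 1568.9 and 1552.2 in control arrays (log2 fold change 0.10, 95% confidence interval -0.04 to 0.24). The 4 probe sets of PDIA6 ran from -0.18 to 0.03, those of ERO1A from -0.36 to 0.22, and the pair for ERO1B were at -0.44 and -0.12, none called.

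SSR1 encodes the alpha subunit of the TRAP complex, which assists import of proteins through the SEC61 channel. It had the most probe sets of any member, 6, all of them below 0 and 4 of them called. The brightest read 1673, 1428.6 and 1613.6 in BAHD1 siRNA arrays, against 1912.8, 2043.8 and 2134.7 in control arrays, a difference of -0.37 ± 0.08 (adjusted p = 0.0196, limma intensity-trend fit). The other calls were at -0.46, -0.39 and -0.31, and the 2 that did not pass at -0.29 and -0.16. SEC61B, a subunit of the channel itself, was at 1928.9, 1782.2 and 1880 in BAHD1 siRNA arrays against 1638, 2204.2 and 1974.3 in control arrays, and the groups overlapped (-0.05, adjusted p = 0.815).

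Proteins that fail to fold are trimmed by EDEM mannosidases, passed out of the ER near the derlins and the SEL1L-SYVN1 ligase, and destroyed in the cytosol. EDEM2, read by 1 probe set, was at 98.1, 88.6 and 98.1 in BAHD1 siRNA arrays, against 136.1, 168.8 and 139 in control arrays. This is 64.6% of the control level, at -0.63 ± 0.12 (adjusted p = 0.0178, limma intensity-trend fit). EDEM1 and EDEM3 were not called, at 0.04 and 0.13 for their brightest probe sets, and EDEM1 was noisy because control replicate 2 read 65.4 against 155.8 and 154.6 in the other control arrays.

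SVIP is a small membrane protein known to inhibit the ER degradation machinery through VCP. Of its 4 probe sets 2 fell, the stronger reading 119.8, 101.8 and 113.8 in BAHD1 siRNA arrays against 175.2, 161.4 and 176.2 in control arrays (-0.61 ± 0.11, adjusted p = 0.0134, limma intensity-trend fit). The other called one was at -0.57 ± 0.11, while the remaining ones, one of them the brightest, were at -0.09 and -0.16.

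DERL1, a derlin of the exit channel, was the one member with a rise. Its brightest probe set read 485.5, 507.3 and 500.3 in BAHD1 siRNA arrays, against 384.5, 374.7 and 407.6 in control arrays, at 0.36 ± 0.07 (adjusted p = 0.0216, limma intensity-trend fit). The 3 other DERL1 probe sets did not share the direction, at -0.01, -0.08 and, for a dim one, -1.28 ± 0.60. DERL2 was at 252.3, 240.4 and 238.9 in BAHD1 siRNA arrays against 262.4, 290.3 and 338.2 in control arrays, and its -0.28 ± 0.10 did not pass (adjusted p = 0.137). DERL3, HERPUD1 and SEL1L were not called, with brightest probe sets at -0.28, -0.09 and 0.06.

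**Figure D4:**
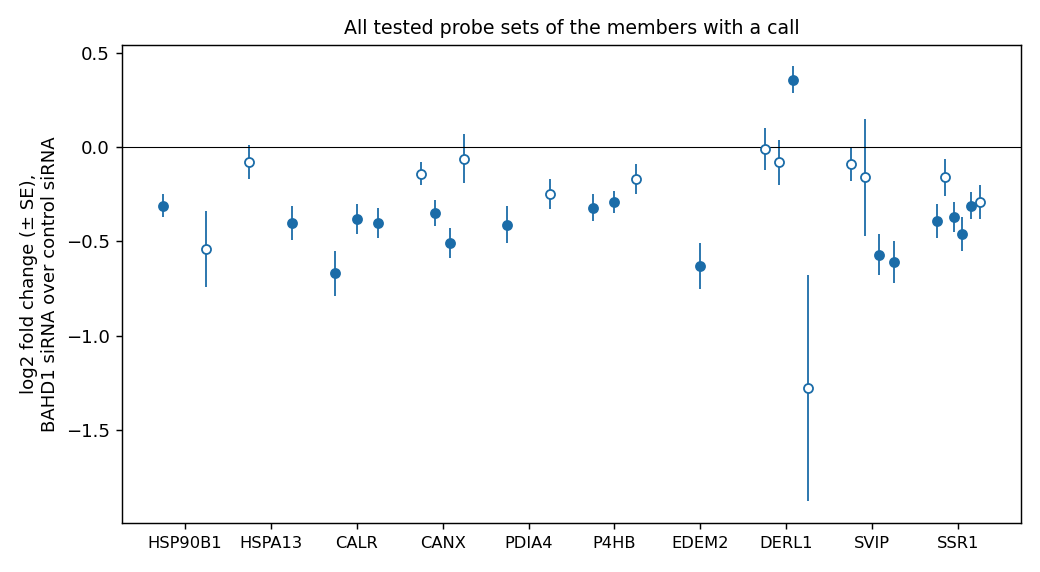
Log2 fold change (BAHD1 siRNA over control siRNA) ± SE from the intensity-trend fit for every tested probe set of the 10 genes with a call; filled points passed an adjusted p of 0.05. All probe sets of HSP90B1, HSPA13, CALR, CANX, PDIA4, P4HB, EDEM2, SVIP and SSR1 lie below 0, and those of DERL1 run from -1.28 to 0.36.

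Agreement among probe sets of a gene was mixed. Of the 31 members with more than 1 tested probe set, 15 had all of them lower, 2 had all of them higher (ATF6 and EIF2AK4) and the other 14 were split. Of the 17 lower calls, 8 came from the 37 member _s_at probe sets, which can read several transcripts of a gene or family. Of all tested _s_at probe sets, 3.47% were called lower. The 9 member _x_at probe sets gave 3 (against 2.25% of all such), and the 58 with a plain _at ending gave 6 (against 1.7%). When _x_at probe sets were left out of the fit, 14 member probe sets were called lower (14.3%, against 2.53% of all then tested).

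The sensors and the eIF2 module stayed without a call. ATF6 leaned upward in all 4 of its probe sets, and the brightest read 351.7, 398.3 and 356.1 in BAHD1 siRNA arrays against 331.6, 325.7 and 329.4 in control arrays. The groups were apart, but the log2 fold change of 0.16 (95% confidence interval -0.01 to 0.34) did not pass (adjusted p = 0.276, limma intensity-trend fit). ERN1, EIF2AK3 and EIF2AK4 were at -0.12, -0.11 and 0.01 for their brightest probe sets, and EIF2S1, the phosphorylated subunit of eIF2, at -0.14.

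PPP1R15A (GADD34), the stress-induced subunit that brings a phosphatase to eIF2, came nearest to a call in this group. Its brighter probe set read 130.8, 126.3 and 117.4 in BAHD1 siRNA arrays, against 172.2, 169 and 147.3 in control arrays. The difference of -0.38 ± 0.11 had an adjusted p of 0.0723 in limma's intensity-trend fit, and of 0.0436 when only probe sets above the 75th percentile were tested. PPP1R15B, the constitutive counterpart, was at 0.14, and its groups overlapped.

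The transcription factors through which these branches act were near the control level. ATF4 read 6722.5, 6241.9 and 6257.6 in BAHD1 siRNA arrays against 7268.3, 6974.2 and 6341.1 in control arrays, a log2 fold change of -0.10 (95% confidence interval -0.25 to 0.06). DDIT3 (CHOP), the death-associated factor of prolonged ER stress, read 303.6, 272.3 and 318.7 in BAHD1 siRNA arrays against 311.6, 284.6 and 312.4 in control arrays. Its fold change was -0.02, with an interval from -0.22 to 0.17. Both overlapped between the groups.

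XBP1 read 1607.6, 1709.5 and 2004 in BAHD1 siRNA arrays against 1593, 1697.8 and 1827.5 in control arrays, at 0.05 (interval -0.13 to 0.24). ATF3, a stress-induced repressor, read 1129.6, 937 and 1079.7 in BAHD1 siRNA arrays against 1120.3, 1252.4 and 1212.5 in control arrays, at -0.19 ± 0.08 (adjusted p = 0.189). Its 3 probe sets were all below 0. CEBPG, a partner of ATF4, was at 937.1, 976.1 and 1012.8 in BAHD1 siRNA arrays against 925.9, 862.4 and 856 in control arrays, which are apart, and its 0.15 did not pass (adjusted p = 0.232). CEBPB was at 0.09.

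None of the 7 measured members that ATF4 is known to drive was called in the signals as deposited. ASNS, which makes asparagine, read 5439.9, 5015.8 and 5219.9 in BAHD1 siRNA arrays against 5313.1, 5709.9 and 4739.3 in control arrays, or 99.7% of the control level with an interval from -0.17 to 0.16 on the log2 scale. TRIB3, a pseudokinase induced by ATF4 and CHOP, read 701.7, 725.6 and 844 in BAHD1 siRNA arrays against 749.6, 658.4 and 657.4 in control arrays (0.13, interval -0.05 to 0.32). CHAC1, which degrades glutathione, read 233.1, 271.7 and 291.6 in BAHD1 siRNA arrays against 309.5, 284.6 and 291.2 in control arrays (-0.16, interval -0.37 to 0.05). In all of them the groups overlapped.

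Serine and one-carbon genes were close to the control level at their brightest probe sets. PSAT1, the second enzyme of serine synthesis, read 4553.7, 4801.2 and 4795.3 in BAHD1 siRNA arrays, against 4141.5, 4420.3 and 4213.6 in control arrays. The groups were apart and the log2 fold change was 0.15, not called as deposited (adjusted p = 0.207). After quantile normalisation of the arrays it was 0.22 and passed (adjusted p = 0.0359), as it did after cyclic loess (adjusted p = 0.0446), while the other PSAT1 probe set was at -0.01. PHGDH, SHMT2 and MTHFD2 were at 0.10, -0.15 and 0.02 for their brightest probe sets, and none passed. The other MTHFD2 probe set was at -0.23 with the groups apart and did not pass (adjusted p = 0.134, limma intensity-trend fit). The other SHMT2 probe sets were at 0.11 and -0.04. A p above the threshold does not show that these transcripts were equal, and the intervals bound the change.

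**Figure D5:**
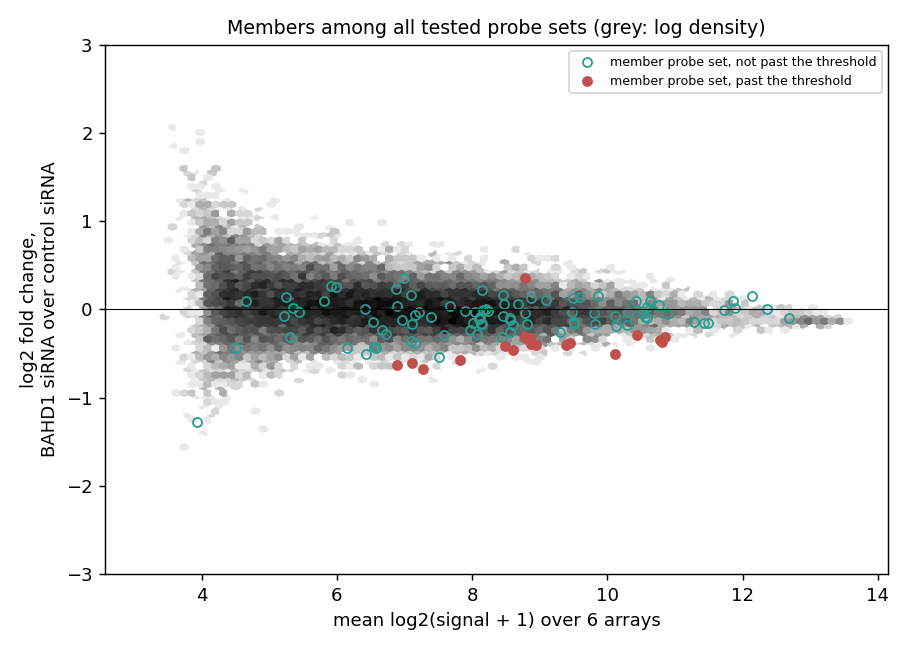
Log2 fold change (BAHD1 siRNA over control siRNA) against mean log2(signal + 1) over the 6 arrays, for all 27458 tested probe sets (grey, log density), the 18 member probe sets past the threshold of the intensity-trend fit (red, filled) and the other 89 (green, open). Members sit towards the bright end, with 65 of the 107 in the brightest of 4 equal bins, and 17 of the 18 filled points are below 0.

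Members were brighter than the average probe set, and bright probe sets as a whole leaned lower. With all tested probe sets in 4 equal bins of mean signal, 42.1% of the brightest bin were higher in BAHD1 siRNA arrays, against 60.9% of the dimmest. Within the brightest bin, 13 of 65 member probe sets were called lower (20%, against 5.59% of all in that bin) and 1 was called higher (1.54%, against 3.76%). After quantile normalisation, and after cyclic loess, which removes a shift that depends on the signal, the fit called the same 17 member probe sets lower (15.9%, against 2.17% and 2.11% of all tested) and 2 higher (1.87%, against 2.3% and 2.4%). The median over the 49 genes was then -0.06 and -0.05, and that of the chaperones -0.13 and -0.12. ATF4 was at 0.02 and -0.02 under these settings.

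Members with and without an ER stress response element both included lower calls. Of the 8 with a match, CALR, CANX and HSP90B1 had called probe sets, and 7 were lower at their brightest probe set, with a median log2 fold change of -0.13. Among the other 37 with both a promoter entry and a tested probe set, 6 had a lower call (3.71% of all genes had one), 23 were lower at the brightest probe set and the median was -0.08. HSPA5, CRELD2, PDIA6, ERO1B and XBP1 carry the element and were not called, whereas SSR1, EDEM2, SVIP, P4HB, PDIA4 and HSPA13 had lower calls and no match in the window. This split was not tested, and it does not separate targets of ATF6 and XBP1 from other members.

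A second list of 73 genes around the same pathways, of which 67 had tested probe sets, gave 12 lower calls from 10 genes (8.28% of 145 probe sets, against 2.28% of all tested) and 6 higher calls from 3 genes (4.14%, against 2.17%). Of 23 measured genes of the ER lumen and membrane, 7 had lower calls and 1 had higher calls, where 3.71% and 3.99% of all genes had one, and the median log2 fold change of the 23 was -0.03. PRKCSH and GANAB, the subunits of glucosidase II, which trims glycans before the calreticulin step, had called probe sets at -0.62 ± 0.09 and -0.35 ± 0.07. SEC61A1, the pore of the import channel, was at -0.41 ± 0.09, the TRAP subunit gene SSR3 at -0.55 ± 0.11, the channel-stabilising SERP1 at -0.32 ± 0.08 and the proline isomerase gene PPIB at -0.29 ± 0.07. For each of these 6 genes 1 probe set was called, but the other PRKCSH probe set, its brightest, was at 0.11. All 3 other SERP1 probe sets were above 0 and the SSR3 probe sets ran from -0.55 to 0.10. The brightest probe sets of SEC61A1 and PPIB were not called, at -0.12 and -0.08, nor was the dimmer one of GANAB, at -0.07. SPCS3, a subunit of signal peptidase, fell in all 3 of its probe sets, at -0.56, -0.52 and -0.38, but these calls were kept in 0, 1 and 0 of the 6 fits with an array left out, and the last was lost after cyclic loess (adjusted p = 0.052, limma intensity-trend fit). Of the single calls, that of PRKCSH was kept in all 6 of these fits and that of SEC61A1 in 1.

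SEC63 went the other way. This membrane protein recruits BiP to the import channel, and all 5 of its probe sets were higher, with 3 called. The brightest read 1141.9, 1165.1 and 1229.3 in BAHD1 siRNA arrays, against 866.5, 884.7 and 914.6 in control arrays, a difference of 0.41 ± 0.06 (adjusted p = 0.00815, limma intensity-trend fit). A second called probe set was at 0.45 ± 0.06 and a dimmer one at 0.84 ± 0.16. The first and second calls held without any one of the 6 arrays.

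In the degradation part of the second list, 2 of 11 measured genes had a lower call (against 3.71% of all genes), the lectin gene ERLEC1 at -0.29 ± 0.07 and SELENOS, which anchors VCP to the ER, at -0.27 ± 0.07. The SELENOS call was lost after quantile normalisation (adjusted p = 0.0581) and cyclic loess (adjusted p = 0.0628, limma intensity-trend fit). With an array left out, SELENOS was called in 1 of 6 fits and ERLEC1 in 0. Among 14 measured signalling genes EIF2AK1, the haem-regulated eIF2 kinase, had a lower call at -0.63 ± 0.15, with another probe set at -0.22, and it was called in 0 of the 6 fits with an array left out. Among 19 integrated stress response targets 0 had a lower call, where 3.71% of all genes had one, and 2 had a higher call, where 3.99% did. Their median log2 fold change was 0.12, against 0.02 over all genes. CTH, the enzyme that makes cysteine from cystathionine, read 1203.3, 1298.6 and 1528.2 in BAHD1 siRNA arrays against 938.7, 910 and 968.1 in control arrays (0.51 ± 0.08, adjusted p = 0.00928, limma intensity-trend fit), and its other probe set was at 0.51 as well. The cystine transporter gene SLC7A11 had 1 of 3 probe sets called higher, at 0.29 ± 0.07, and another at -0.09, and the call was kept in 1 of the 6 fits with an array left out.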

How the data were processed

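Gene expression was measured on Affymetrix U133 Plus 2 arrays, which carry oligonucleotide probe sets, from 3 HEK293 cultures per group. The deposited values are intensities on a linear scale that are already normalised, with a 2% trimmed mean of 100 on each array. GCOS and GCRMA are named, per the submitters' processing notes, with neither version nor role. The genome build of the probe design is not given here. Symbols came from the platform annotation, and only probe sets with 1 symbol were used. The 62 control probe sets were left out. Probe sets above a signal of 17.9 (the median) in at least 3 of the 6 arrays were tested (27458), after log2(signal + 1). limma 3.58.1 in R 4.3.3 fitted all 6 arrays with group as the single term. The planned fit used one variance prior. The intensity-trend fit used trend and robust, and was added because the planned fit was already known to call no probe set. Adjusted p-values are Benjamini-Hochberg over all tested probe sets.

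Probe sets named in full were those called, the 3 with the smallest p per role group and fixed key genes. Members and lists were chosen with earlier results of these data known. Alternatives were the pseudocount, the filter, quantile, cyclic loess and median scaling, array weights, the replicate number as a block, other thresholds and leaving out each array. Replicate numbers share only a number: deviations of arrays from their group means correlated between -0.03 and 0.02. Arrays correlated at 0.940 to 0.947 within groups and 0.939 to 0.946 between them. The number of arrays limits the precision, and no scan dates were used. Promoters came from RefSeq, GRCh38.p14.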

Additional observations from a re-analysis of the deposited data

How the results depend on the processing

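The planned fit called 0 member probe sets, but 18 with a trended, robust prior, which is the intensity-trend fit by construction, and 20 with testing limited to probe sets above the 75th percentile (22.5%, against 8.27% of all then tested). Calls in the intensity-trend fit were 17 lower and 1 higher (15.9% and 0.935%, against 2.28% and 2.17% of all tested). Lower calls numbered 9 with no filter on dim probe sets, where more were tested (7.83%, against 0.403%), 1 at an adjusted p under 0.01 (0.935%, against 0.193%), and 3 to 14 with one array left out (2.8% to 13.1%, against 0.353% to 2.21%). Higher calls numbered 0 with no filter (against 0.326%), 0 at an adjusted p under 0.01 (against 0.178%), 2 after quantile normalisation (1.87%, against 2.3%), 2 after cyclic loess (1.87%, against 2.4%), and 0 to 2 with one array left out (against 0.291% to 2.24%). The median over member genes was -0.09, and -0.06 after quantile normalisation, -0.05 after cyclic loess, -0.12 with array medians centred, and -0.09 to -0.07 with one array left out. Other changes in these counts stayed within 1.5 times. The cause of the changes was not tested, except where stated. With the replicate number as a block, 19 member probe sets were called lower and 1 higher (17.8% and 0.935%, against 2.97% and 2.96%), although the numbers pair nothing in the labels, and 0 in the fit with one prior. Leaving out probe sets ending in _x_at, an alternative chosen after seeing the data, gave 14 lower calls and 1 higher (14.3% and 1.02%, against 2.53% and 2.47%). No named member or pathway probe set that was called changed sign under any of these settings. Only the rescaling of the arrays could have changed a sign. With an array left out it was fixed in advance, because the groups of these probe sets did not overlap, and the threshold, filter and prior leave the estimate as it is. Dim probe sets were left untested, so 8 member probe sets give no value.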
